A study of Rattus norvegicus with 8 samples.

Results

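Wide H2AK119ub1 regions of sham rat sciatic nerve that had no counterpart after nerve injury are described here. Enriched regions were taken from 2 peak lists, 1 for sham nerve and 1 for nerve cut 1 day earlier (1 dpi). Members were selected on their width in the sham list and on the positions of the 1 dpi list. A sham region had to measure 500 bp or more, and the gap to the nearest 1 dpi region on the same chromosome had to exceed 1000 bp on both sides. This left 1550 regions, of 5351 sham regions of that width, 82046 sham regions of any width and 181386 regions in both lists together.

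The nerves came from 2 male Sprague Dawley rats. The labels list their age as P28, whereas the protocols call the rats adult. In each animal 1 sciatic nerve was transected, and the distal stump was the injured sample. The nerve of the other leg, where the operation was limited to opening the skin, was the sham sample. Of the 8 libraries, 2 were H2AK119ub1 chromatin immunoprecipitation (ChIP-seq) and 2 were input chromatin in each condition. Both conditions thus shared the animals, the strain, the day of collection and the antibody, and the labels list no transgene or drug. Whole nerve was used, which holds Schwann cells together with other cell types, so a mark in fewer cells and less of the mark in each cell cannot be told apart. The lists hold no expression values, so the tissue was not checked against marker genes.

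H2AK119ub1 is histone H2A carrying a single ubiquitin on a lysine of its C-terminal tail. It is deposited by Polycomb repressive complex 1 (PRC1), whose RING1 subunits are the ubiquitin ligases, and it is found over silent or poised developmental genes, often at CpG-rich promoters. There it commonly accompanies H3K27me3, the methyl mark of Polycomb repressive complex 2. The ubiquitin can be removed by deubiquitinases such as BAP1 and USP16. In nerve, Polycomb complexes are known for restraining genes that Schwann cells switch on when they lose contact with an axon. The question behind the comparison was whether the mark is lost from such genes after injury. Genes and DNA sequence under the regions were not analysed here, because the reference tables at hand follow another rat assembly than the rn5 coordinates of the lists.

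Each list combined the 2 ChIP libraries of its condition, so every measure has 1 value for each condition and no spread between animals. No test between conditions was made, and regions of 1 list are not replicates of the condition. Depth was 19714687 tags in sham and 76420053 at 1 dpi, or 3.88 times higher at 1 dpi. A sham window needed 8.09 times the expected tags to be called and a 1 dpi window 3.53 times. Comparison with input removed 541 candidate peaks from the sham list and 6818 from the 1 dpi list. Absence from the 1 dpi list therefore means that no window nearby passed the 1 dpi criteria, and it does not mean that the mark was absent. The part of depth, calling limits and input in this absence was not tested.

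The 1550 regions made up 29.0% of the wide sham regions (Wilson 95% interval 27.8 to 30.2%, which covers counting error only). Among sham regions of every width, 58.4% had no 1 dpi region within 1000 bp. The members were chosen by this contrast, so the shares are given as a description and nothing is read from them. In the opposite direction, 950 of 4767 wide 1 dpi regions, or 19.9% (18.8 to 21.1%), had no sham region within 1000 bp. Over 1 dpi regions of every width this share was 61.8%, so the list with the larger share changed with the width considered. The members covered 992 kb, which was 24.4% of the length of all wide sham regions and 5.28% of all sham regions.

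The members were the narrower of the wide regions. Their median width was 591 bp, with a middle range (25th to 75th percentile) of 539 to 703 bp, against a median of 680 bp and a middle range of 567 to 894 bp for the 3801 wide sham regions that had a 1 dpi region within 1000 bp. A width under 600 bp was found for 811 members, 600 to under 750 bp for 476, 750 to under 1000 bp for 215 and 1000 bp or more for 48. The share without a 1 dpi region fell with every step in width. It was 65.0% of the 49807 single calling windows of 151 bp, 38.7% of the 2096 sham regions of 500 to under 600 bp, 21.5% of the 1000 regions of 750 to under 1000 bp and 8.41% of the 559 regions of 1000 to under 1500 bp. Only 1 of 212 sham regions of 1500 bp or more, and 0 of 73 of 2000 bp or more, were without a 1 dpi region. A count of 0 was taken to allow up to 3, or a share of 4.11% of the 73, which is not a Wilson limit. The widest sham region of all, at 4753 bp, had a 1 dpi region within 1000 bp. Wide 1 dpi regions showed the same order in the opposite direction, from 31.3% at 500 to under 600 bp to 0.706% at 1500 bp or more.

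**Figure D1:**
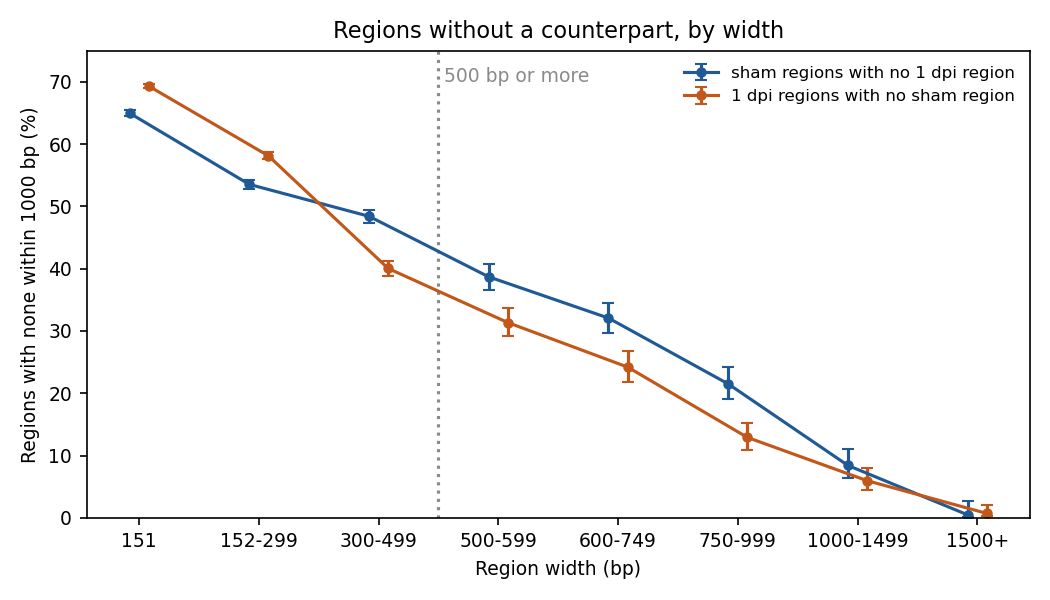
Share of regions (%) with no region of the other list within 1000 bp, by region width in bp, for sham regions (blue) and 1 dpi regions (orange). Points are shares and bars Wilson 95% intervals for counting error. Both lines fall with width, and to the right of the dotted line, where the members lie, the sham share goes from 38.7% to 0.472%.

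The narrowest members measured 500 bp, and 12 had exactly this width, whereas 17 sham regions of 499 bp also lacked a 1 dpi region within 1000 bp. The smallest gaps among the members were 1002 bp, for chr10:100967505-100968385, and 1003 bp, for chr19:64122122-64122944. The nearest regions left out had gaps of 1000 bp, for chr12:51133698-51134395, and 999 bp, for chr6:67111508-67112143. In all, 59 members lay within 100 bp above the distance limit and 73 wide sham regions within 100 bp below it. Of the 3801 wide sham regions with a 1 dpi region near, 2937 shared bases with it and 864 did not.

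The 10 widest members ranged from regions within a few kb of the 1 dpi list to 1 without a region of either list within 50 kb. The widest of all, chr1:263865035-263866959, measured 1925 bp, and the closest 1 dpi regions ended 1340 bp to its left and began 2834 bp to its right. It lay in a dense neighbourhood, with 11 other sham and 11 1 dpi regions within 10 kb. The next, chr6:141007529-141008966, measured 1438 bp and had 1 dpi regions 4263 and 4288 bp away, with 3 other sham and 4 1 dpi regions within 10 kb. A region of 1258 bp, chr10:90818208-90819465, had 1 dpi regions 4482 and 1234 bp away, and 8 of them within 10 kb. These 3 were gaps in the 1 dpi list rather than regions remote from it.

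For chr1:144219204-144220544, of 1341 bp, the 1 dpi list was near on the right side alone, with gaps of 118 kb on the left and 1.77 kb on the right. Neither side was close for chr8:110885530-110886843, of 1314 bp, with gaps of 11.5 and 20.2 kb. The same held for chr6:154009682-154010963, of 1282 bp, with gaps of 26.3 and 21.4 kb, and for chr16:20747831-20749041, of 1211 bp, with gaps of 12.5 and 59.3 kb. None of these 3 had a 1 dpi region within 10 kb.

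The other 3 of the 10 widest had no 1 dpi region within 50 kb. For chr7:66694122-66695410, of 1289 bp, the gaps were 163 and 50.6 kb. It had another sham region 510 bp to its left. For chr15:105608655-105609931, of 1277 bp, they were 1867 and 291 kb, and 3 other sham regions lay within 10 kb. The region chr2:211291979-211293268, of 1290 bp, stood alone in both lists, with 1 dpi regions 204 and 1587 kb away and sham regions 181 and 163 kb away. It was nevertheless the 12th entry of the sham list. Among the 48 members of 1000 bp or more, 16 had no 1 dpi region within 10 kb and 7 had none within 50 kb.

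Most members lay within a few kb of the 1 dpi list. The median gap was 4538 bp, and the middle range was 2039 to 12802 bp. The gap was at most 2 kb for 375 members, over 2 to 5 kb for 437, over 5 to 10 kb for 270 and over 10 to 50 kb for 349. A further 54 had gaps over 50 to 100 kb, 62 over 100 kb to 1 Mb and 3 over 1 Mb. No 1 dpi region was found within 10 kb of 468 members, or 30.2% (28 to 32.5%), and within 50 kb of 7.68% (6.45 to 9.11%). A 1 dpi region lay within 10 kb on both sides of 554 members and on 1 side alone of 528. Width and gap did not move together in a simple way, with median gaps of 4808 bp for members under 600 bp, 4628 bp at 600 to under 750 bp, 3422 bp at 750 to under 1000 bp and 4457 bp at 1000 to under 1500 bp.

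**Figure D2:**
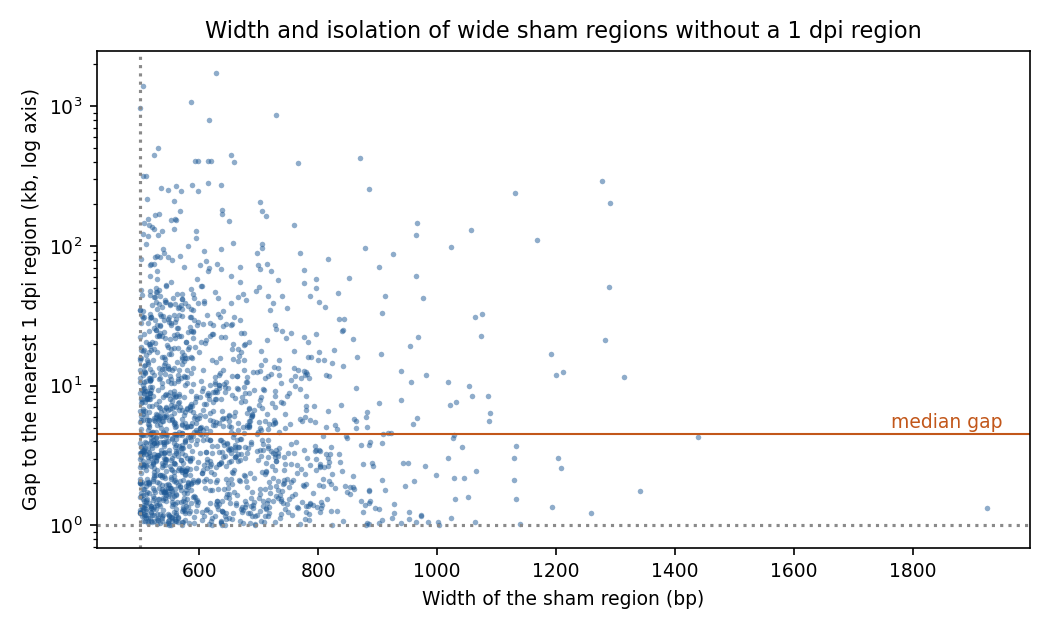
Each point is 1 of the 1550 members, with its width in bp and the gap in kb (log axis) to the nearest 1 dpi region. Dotted lines mark the limits of 500 bp and 1 kb that chose the members, and the orange line is the median gap of 4538 bp. Points thin out with width, but gaps over 100 kb occur at 500 bp as well as above 1000 bp.

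The member farthest from the 1 dpi list was chr14:94163023-94163650, of 628 bp, at 1723 kb on the left and 5156 kb on the right. It was followed by chr10:27207804-27208308, of 505 bp, at 1394 and 1448 kb, and by chr20:18986256-18986842, of 587 bp, at 1066 and 1599 kb. These 3 had 1 other sham region each within 10 kb, at 3984, 1394 and 683 bp. The other two, chr9:106341562-106342061 of 500 bp and chr2:17491487-17492216 of 730 bp, had nearest 1 dpi regions at 980 and 866 kb and no other sham region within 50 kb. The lack of 1 dpi regions around these members follows from how they were picked. Sham regions around such members were few as well. The members with no 1 dpi region within 50 kb had a median of 1 other sham region in that distance. There were 23 with none, 86 with 1 to 4 and 10 with 5 or more.

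The surroundings in the sham list itself were not used directly to choose the members. They are still not independent of the rule on 1 dpi positions, because the densities of both lists fell together with distance, as given below. The part of this rule in the following shares was not tested. Another sham region lay within 5 kb of 867 members, or 55.9% (53.5 to 58.4%), and of 86.2% (85.0 to 87.2%) of the wide sham regions with a 1 dpi region near. Within 1 kb the shares were 16.4% and 57.1%. Members thus had fewer close sham neighbours, although the interval covers counting error only and the difference was not tested. The order was the same at equal width. Under 600 bp, 53.0% of 811 members and 82.6% of 1285 regions with a 1 dpi region near had a sham neighbour within 5 kb, and at 1000 to under 1500 bp the shares were 68.1% of 47 and 92.6% of 512.

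At longer range, too, members lay in sparser surroundings of both lists. Between 1 and 50 kb from the region, members had a median of 7 other sham regions and 8 1 dpi regions. The wide sham regions with a 1 dpi region near had 12 and 17. The densities of the 2 lists fell together with distance, so the sham surroundings are not independent of the rule on 1 dpi positions. At 1 to 2 kb from members there were 11.3 sham regions and 14.9 1 dpi regions per 100 kb, and at 50 to 100 kb 7.49 and 9.41. Around the regions with a 1 dpi region near, the same values were 34.3 and 40.6 at 1 to 2 kb and 9.23 and 13.1 at 50 to 100 kb. Members therefore lay where both lists were denser than their genome averages of 2.83 sham and 3.43 1 dpi regions per 100 kb, but without the steep rise towards the region. These averages count whole chromosomes, and the surroundings of all sham regions were not measured. The excess over the averages is thus not shown to be particular to members. Outside the 1 kb limit, 1 dpi regions outnumbered sham regions around members at every distance, by 1.19 to 1.38 times. This was close to the ratio of 1.21 between the whole lists and to the 1.19 to 1.46 times around the regions with a 1 dpi region near.

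**Figure D3:**
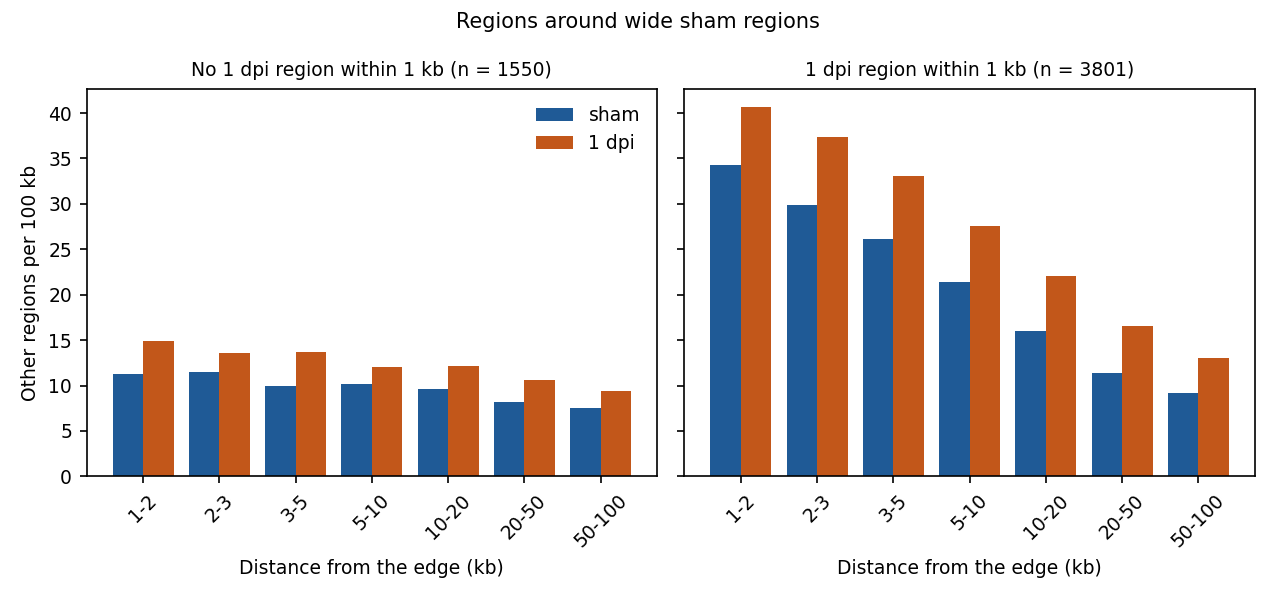
Other sham regions (blue) and 1 dpi regions (orange) per 100 kb at increasing distance in kb from the edges of wide sham regions, for the 1550 without (left) and the 3801 with (right) a 1 dpi region within 1 kb. Bars are totals over all regions of a set and start at 1 kb, beyond the limit used to choose them. The left bars stay between 7.49 and 14.9, whereas the right bars rise to 34.3 and 40.6 next to the region.

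Sham regions were also joined across gaps of up to 5 kb. Clusters that spanned at least 10 kb held 209 members, or 13.5% (11.9 to 15.3%), 44.0% of the regions with a 1 dpi region near and 17.0% of all sham regions. Whatever the span, 867 members were joined to other sham regions. For 470 of them (54.2%), a sham region joined to the member did lie within 1000 bp of a 1 dpi region.

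The nearest 1 dpi region was usually narrow. It was a single window of 151 bp for 1046 members, or 67.5% (65.1 to 69.8%), compared with 60.2% of all 1 dpi regions. It was 500 bp or wider for 35 members, or 2.26% (1.63 to 3.12%), compared with 4.80% of all. Of the 61427 1 dpi regions with no sham region within 1000 bp, 41489 were single windows and 950 were 500 bp or wider. Narrow 1 dpi regions were thus common away from the sham list in general, and not only next to members. Wide 1 dpi regions that had no sham region within 1000 bp were found within 50 kb of 130 members (8.39%) and of 17.4% of the wide sham regions with a 1 dpi region near.

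The lists give no peak height, and the order of their entries was the only other graded information. HOMER, which made the lists, ranks its output by score, but the lists do not say how they were sorted. Members stood high in the sham list, with a median place of 3594 among 82046 and a last place of 19525. This was not particular to them, since the wide regions with a 1 dpi region near had a median place of 2749. The first 5% of the list held 887 of them, or 57.2% (54.7 to 59.7%), and 65.7% (64.2 to 67.2%) of the wide regions with a 1 dpi region near. Within width classes below 1000 bp the order was the reverse. The first 5% held 38.1% of members and 34.1% of the regions with a 1 dpi region near under 600 bp, 68.3% and 62.5% at 600 to under 750 bp, and 95.3% and 89.9% at 750 to under 1000 bp. In the first 1% of the list, 93 of 789 wide regions were members, or 11.8% (9.72 to 14.2%). The share was 26.0% in the second 1% and 30.9% in the third, and it lay between 31.6 and 37.0% from there to the tenth. Wide regions beyond the first 10% gave 30.0% (26.1 to 34.3%) of 483. Over sham regions of any width, the share without a 1 dpi region was 13.7%, 27.3% and 34.1% in the first 3 successive 1% parts, 48.5% in the tenth and 60.6% beyond it. Wide regions made up 789 of 820, 766 of 820 and 698 of 821 regions in those first 3 parts. The shares over any width there were thus mostly those of wide regions, and do not show a low share of narrower ones.

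The 5 members listed earliest included the isolated region on chromosome 2 and the widest member on chromosome 1, described above. At place 5, chr4:142116118-142116694 measured 577 bp and had 1 dpi regions 35.4 kb to the left and 1267 bp to the right. It lay among 7 other sham and 4 1 dpi regions within 10 kb. At place 49, chr20:6727853-6728655 measured 803 bp, with sham regions 318 and 315 bp away on its sides and 1 dpi regions at 14.4 kb and 1249 bp. At place 117, chr1:154940055-154940993 measured 939 bp, with 1 dpi regions at 2936 and 1044 bp. In these 3 the nearest 1 dpi region was thus between 1044 and 1267 bp away, close to the limit of 1000 bp.

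Stretches between consecutive 1 dpi regions were examined next, to see whether members came in company. Of these stretches, 1488 held at least 1 member, 60 held 2 or more and the most in a stretch was 3. Their median length was 24.2 kb, and the median number of sham regions in them was 3. In 387 the member was the only sham region, and 299 held 5 sham regions or more, of which 125 were shorter than 100 kb. The stretch with 3 members was on chromosome 17 (26974542 to 27734811), was 760 kb long and held 9 sham regions in all. Among those under 100 kb, the one with the most sham regions was on chromosome 3 (177339238 to 177364791), where 13 sham regions covering 2.51 kb lay in 25.6 kb without a 1 dpi region, 1 of them a member of 541 bp.

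Joining members within 50 kb gave 1413 groups, of which 1290 held a single member, 123 held 2 or more and 13 held 3 or more. Another member was within 10 kb of 94 members (6.06%) and within 50 kb of 260 (16.8%). For the wide sham regions with a 1 dpi region near, a member lay within these distances of 5.02% and 18.2%, which is close to the shares of members. In 42 of the 123 groups no 1 dpi region lay between the outer edges.

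The largest group had 4 members on chromosome 12 (44983988 to 45029407), covering 2.29 kb of a span of 45.4 kb. The same span held 14 sham regions, 5 of them 500 bp or wider, and 15 1 dpi regions covering 3.26 kb against 4.73 kb in sham. The other groups of 3 or more had 3 members each, and the 4 with the shortest spans are given. On chromosome 1 (90082037 to 90088927) these members covered 1.70 kb of 6.89 kb, among 4 sham and 2 1 dpi regions. On chromosome 10 (107810348 to 107822756) they covered 2.22 kb of 12.4 kb, among 7 regions of each list. The remaining pair was on chromosome 3. Its first group (177540850 to 177562473) held 9 sham and 5 1 dpi regions, and its second (176571697 to 176600020) held 8 sham and 10 1 dpi regions. In all 5 spans 1 dpi regions covered fewer bases than sham regions, at 0.597 to 3.26 kb against 1.92 to 4.73 kb, a difference that the choice of spans around members favours.

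**Figure D4:**
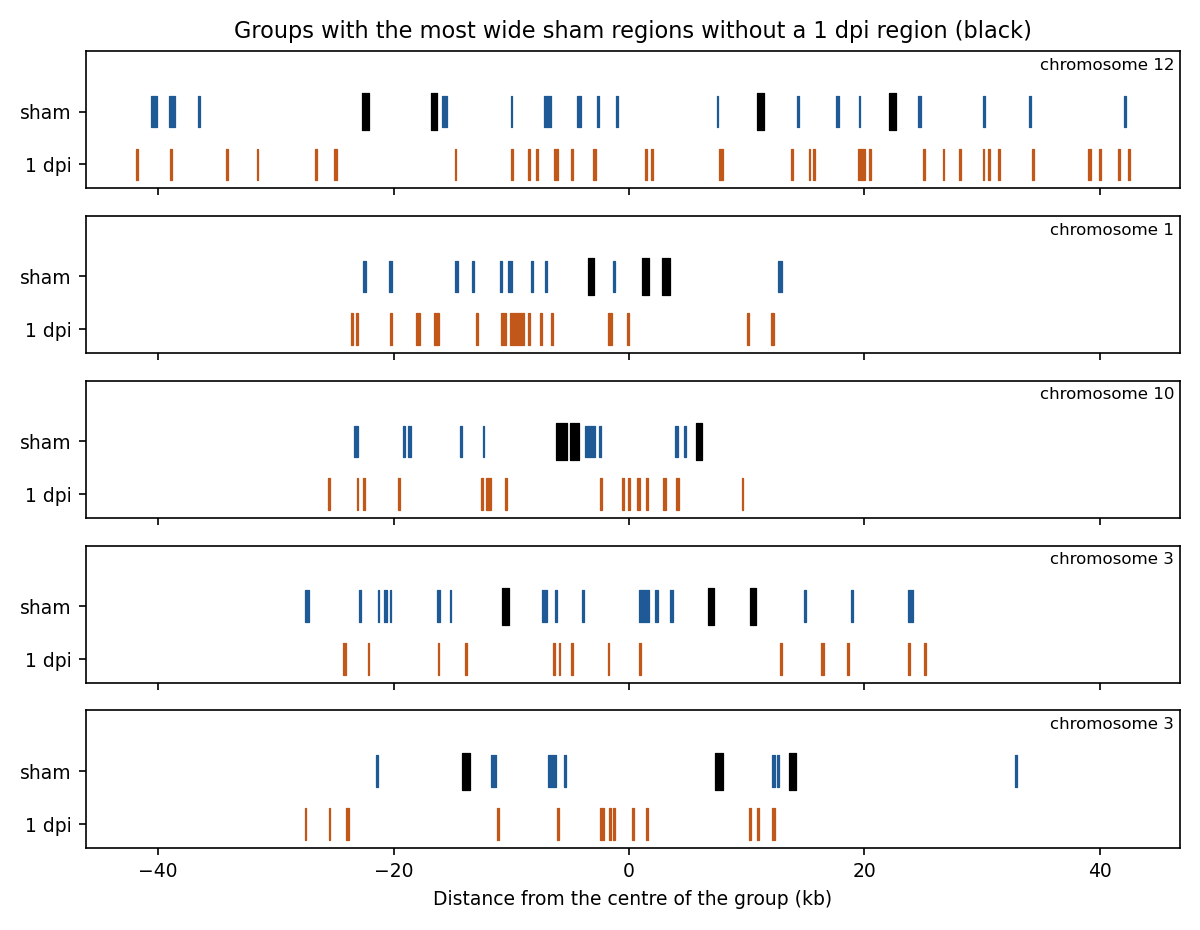
Positions of regions in the 5 groups with the most members, in kb from the centre of each group, drawn up to 20 kb beyond its outer members. Black bars are members, blue bars other sham regions and orange bars 1 dpi regions. The 4 members on chromosome 12 and the 3 in each other group sit at gaps in the 1 dpi row, which has regions elsewhere in each span. Bars carry a thin outline so that the narrowest regions stay visible.

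Members were found on all 21 chromosomes, from 4 on chromosome X to 166 on chromosome 1. As a share of the wide sham regions of a chromosome they ranged from 13.3% of 30 on chromosome X (5.31 to 29.7%) to 35.5% of 155 on chromosome 15 (28.4 to 43.3%). The intervals of 19 chromosomes held the genome-wide share of 29.0%. The exceptions were chromosome 10, with 104 of 464 or 22.4% (18.9 to 26.4%), and chromosome 3, with 108 of 458 or 23.6% (19.9 to 27.7%). Chromosome 10 also had the highest density of 1 dpi regions, at 75 per Mb. On chromosome 3 this density was 43.8 per Mb. Chromosome 12, with 69.7 1 dpi regions per Mb, had a share of 30.1%. Chromosome X, with the fewest at 3.08, had the lowest share, but its interval held the genome-wide share. A relation between the share and this density was not tested. Members per Mb were most frequent on chromosome 12, at 1.44, which had the most wide sham regions per Mb, at 4.77, and least frequent on chromosome X, at 0.0259.

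**Figure D5:**
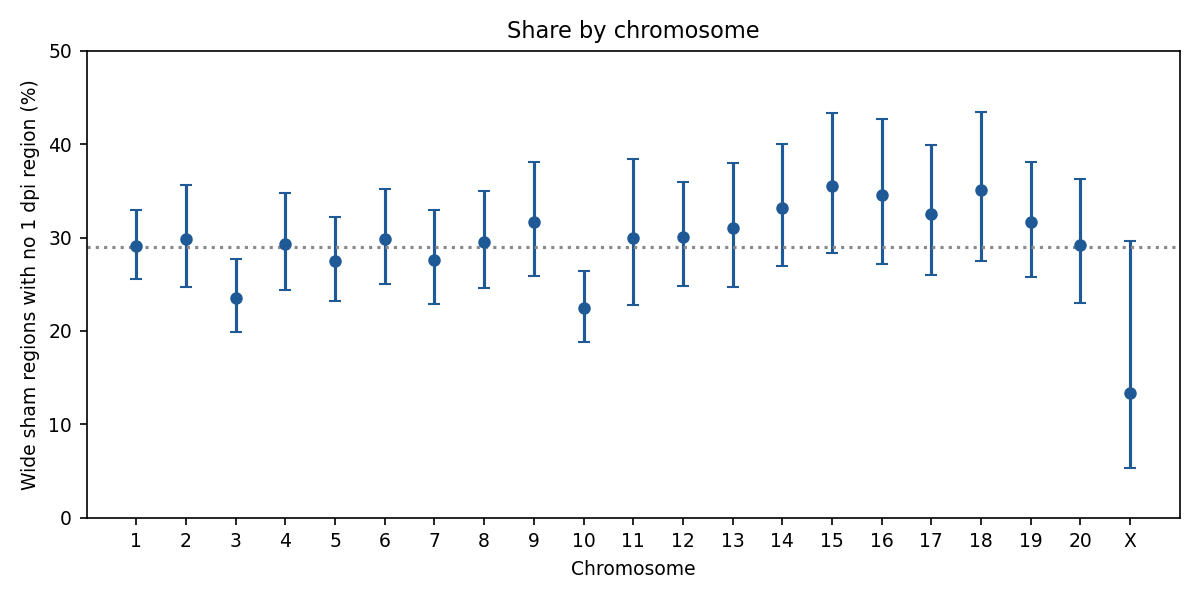
Members as a share (%) of the wide sham regions of each chromosome, with Wilson 95% intervals for counting error. The dotted line is the genome-wide share of 29.0%, and the intervals of chromosomes 3 and 10 lie below it.

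The wide 1 dpi regions without a sham region were used as the closest comparison. The sets did not differ in width by more than a few bp at the median, with 591 bp for members and 593.5 bp for the 950 1 dpi regions. Their surroundings were compared without a test. A neighbour in the own list within 5 kb was present for 55.9% (53.5 to 58.4%) of members and 89.6% (87.5 to 91.4%) of the 1 dpi regions. Between 1 and 50 kb the median number of own-list neighbours was 7 and 22. No region of the other list lay within 10 kb of 30.2% (28 to 32.5%) of members and 13.6% (11.5 to 15.9%) of the 1 dpi regions. Among regions of 500 bp or more, the share without a counterpart was higher in sham than at 1 dpi on 20 of 21 chromosomes. The exception was chromosome 11, with 30% and 31.2%. Shares were nearly equal on chromosomes 3 (23.6% and 23.3%) and X (13.3% and 12.8%). Chromosomes of the same 2 lists are not replicates. Over regions of every width, all chromosomes together, the order was the reverse, at 58.4% in sham and 61.8% at 1 dpi. The difference in depth and calling limits between the lists goes with these values, and its part in them was not tested.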

How the data were processed

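H2AK119ub1 ChIP and input libraries of sham and injured nerve were sequenced by the study. Per the processing notes, bases were called with CASAVA 1.8.2, and the authors aligned reads to rn5 with Bowtie after micrococcal nuclease digestion. Per the file headers, HOMER findPeaks called windows of 150 bp at a minimum distance of 370 bp against combined input (4-fold over input and over 10000 bp around, Poisson p 1.00e-04, FDR 0.001) and stitched them into regions. Versions of Bowtie and HOMER were not given in the sources used here. Headers record at most 1 tag per bp and fragments of 150 bp for sham, and 3 tags and 128 bp for 1 dpi.

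The deposited score column is 1 throughout and was not used. Starts and ends in bp were used as deposited, with printed coordinates counted from 1. Gaps are the bases between regions. They were computed in Python 3.11.15 (numpy 2.4.6, pandas 2.3.3, scipy 1.17.1) with functions checked against brute force on drawn intervals. Shares carry Wilson 95% intervals. No paired analysis or test was made. Named regions were the 10 widest, 5 farthest and 5 first-listed members, those at the limits, and the 5 groups with most members. Dense and long stretches were chosen after their values were seen. The members and measures were chosen with earlier results of these data known.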

Additional observations from a re-analysis of the deposited data

How the results depend on the processing

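Of 37 alternative values for 9 results, 10 stayed within 1.5 times the count or within the 95% interval of the reported value and 27 moved beyond it. These results are counts, shares and medians of members and have no direction. A longer distance or greater width leaves fewer regions by construction. The number of wide sham regions without a 1 dpi region, 1550, was 2414 when only a shared base counted as near, 738 with a gap over 5 kb and 468 over 10 kb, and 2936, 263 and 48 at widths of at least 400, 750 and 1000 bp. The share, 29.0%, was 45.1% without a shared base, 36.3%, 22.0%, 13.8% and 8.75% with gaps over 500 bp, 2, 5 and 10 kb, and 35%, 14.9% and 6.23% at those widths. It was 31.4% with as many 1 dpi as sham regions by listing order, and 43.1% with 1 dpi regions wider than a single window. Another sham region lay within 2 kb of 31.2% and within 10 kb of 75.2% of members. No 1 dpi region lay within 5 kb of 47.6%, within 50 kb of 7.68%, and within 10 kb of 35.9% with equal numbers. Within 20 and 100 kb the median sham regions were 3 and 13 and the 1 dpi regions 3 and 15. The first 10% and 25% of the sham list held 90.6% and 100% of members. The alternative that kept members under 600 bp was chosen after seeing the data and moved neither median beyond its interval.

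No paired analysis was possible because a list pools its ChIP libraries and keeps no value of either, although the labels number the replicates alike. Leaving out a replicate was not possible either. Depth limits these results, since tags differed 3.88-fold between the lists together with the condition.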
